A study of Mus musculus with 4 samples.

Results

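Cells of the blood leave and re-enter tissues by gripping vessel walls and matrix with a small set of adhesion genes, and 38 of them are described here in mouse blood progenitors: integrin chains, selectin ligands and the enzymes that build them, cell-surface molecules of the immunoglobulin type, 1 tetraspanin, and the cytoplasmic proteins that switch integrins on. A gene was taken where exactly 1 symbol stood for its probe set in the platform annotation, and 37 of the 38 were found that way among 30142 genes. The probe set of Itga1 carries a further symbol, so that gene was not analysed here. The cells were lineage-negative, c-Kit-positive (Lin- c-Kit+, or LK) hematopoietic cells from the stem and progenitor pool of the NOD mouse, a strain that develops autoimmune diabetes, held for 4 h in StemSpan medium. The combo group (2 arrays) received dmPGE2, a long-lived analog of prostaglandin E2, and dexamethasone, a synthetic glucocorticoid, at 10 µM each, and the vehicle group (2 arrays) received DMSO. No array carried either drug alone, so the share of each drug cannot be read. Duplicates are described as biological, without naming the animals or cultures behind each, so p-values measure only the spread between these samples, which may be technical.

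Integrins are pairs of an alpha and a beta chain that bind matrix proteins or molecules on other cells, and they bind firmly only after talin and kindlin have gripped the beta chain's tail. Selectins catch flowing cells first, through sugars carried by proteins such as PSGL-1 and CD44. In the marrow, alpha4 beta1 integrin (VLA-4) on progenitors binds VCAM-1 on stromal cells. The beta2 integrins of leukocytes, among them alphaL beta2 (LFA-1) and alphaM beta2 (Mac-1), bind ICAM molecules. Each of these proteins is also regulated by its location, its sugars and its shape, which RNA does not show.

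Values are the authors' RMA signals on the log2 scale, and a difference is combo minus vehicle on that scale, with the standard error (SE) and 95% interval of limma's moderated test. Levels of different genes are not set against each other, since each probe set has its own response. Single background probe sets reached 5.55, and signals up to that value are called the background range. The progenitor genes Kit (10.51 and 9.62 on the combo arrays, 10.18 and 10.32 on the vehicle arrays) and Mpo were well above it, while 7 of 8 T and NK cell genes and 6 of 6 endothelial genes lay within it. So did 3 of 5 B cell genes, but only 1 of 6 mast cell and basophil genes and 0 of 6 megakaryocyte and platelet genes. Of 8 stem and progenitor genes, 3 (Myb, Lmo2 and Erg) were lower in combo at an unadjusted p under 0.05 in limma and 0 higher. Of all features, 2.44% were lower at that threshold. The arrays numbered 1 and 2 stood apart in genes of neutrophil granules. Camp was at 12.80 on combo 1 and 8.41 on combo 2, and at 13.51 on vehicle 1 and 7.63 on vehicle 2. Ltf and Ngp showed the same order of numbers in both groups, and the part of this difference in the results was not tested. In these bulk samples, fewer cells of a type and less RNA per cell cannot be told apart.

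Most of the adhesion genes differed little between the groups. Of the 37 measured members, 0 passed limma's test after Benjamini-Hochberg adjustment over all features, a threshold that 0.00303% of the 65956 features passed. At an unadjusted p under 0.05, Itgam was higher and Icam2 lower in combo, which makes 2 of 37 members (5.41%) against 5.58% of all features (3.14% higher, 2.44% lower) and 8.01% of named genes above the background range (3.07% higher, 4.94% lower). Adding a difference of at least 2-fold, the default of the authors' console, left only Itgam, 1 of 37 (2.70%), against 1.09% of all features (0.699% higher, 0.387% lower) and 1.7% of named genes above the background range (1.11% higher, 0.594% lower). The arrays of both groups did not overlap for 10 of 37 members (27.0%), 7 with combo above and 3 with combo below. Of the 7 with combo above, 5 had both means in the background range. The same held for 34.2% of all features (20.4% above, 13.9% below). Among the 27 members above the background range it held for 4 (14.8%), 2 above and 2 below. Of named genes above that range it held for 34.7% (12.0% above, 22.6% below). Counts of 1 or 2 members, and shares near or below the background, are not results about the list. The members' median difference was -0.04 and that of all features 0.02. Their median absolute difference was 0.19, against 0.13 for all features and 0.16 for named genes above the background range. For 30 of the 37 members (81.1%) the 95% interval lay wholly inside a 2-fold difference either way, as it did for 85.3% of all features. Among the 27 members above the background range it did so for 20 (74.1%), against 81.1% of named genes above that range. All 9 members with both means in the background range were inside, where folds are understated. For Itgam, Itgb2, Itga4, Icam1, Icam4, Pecam1 and Rac2 the interval reached a 2-fold difference in at least 1 direction. The counts depended on single arrays. Without combo 2 or without vehicle 1, 1 member (Itgam) had an unadjusted p under 0.05, without combo 1 there were 3 (Itgam, Itgb2 and Pecam1), and without vehicle 2 there were 4 (Itgam, Icam2, Icam4 and Vcam1). The console's threshold took 0 members without combo 2, 2 without combo 1 (Itgam and Itgb2) and 2 without vehicle 2 (Itgam and Icam4).

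**Figure D1:**
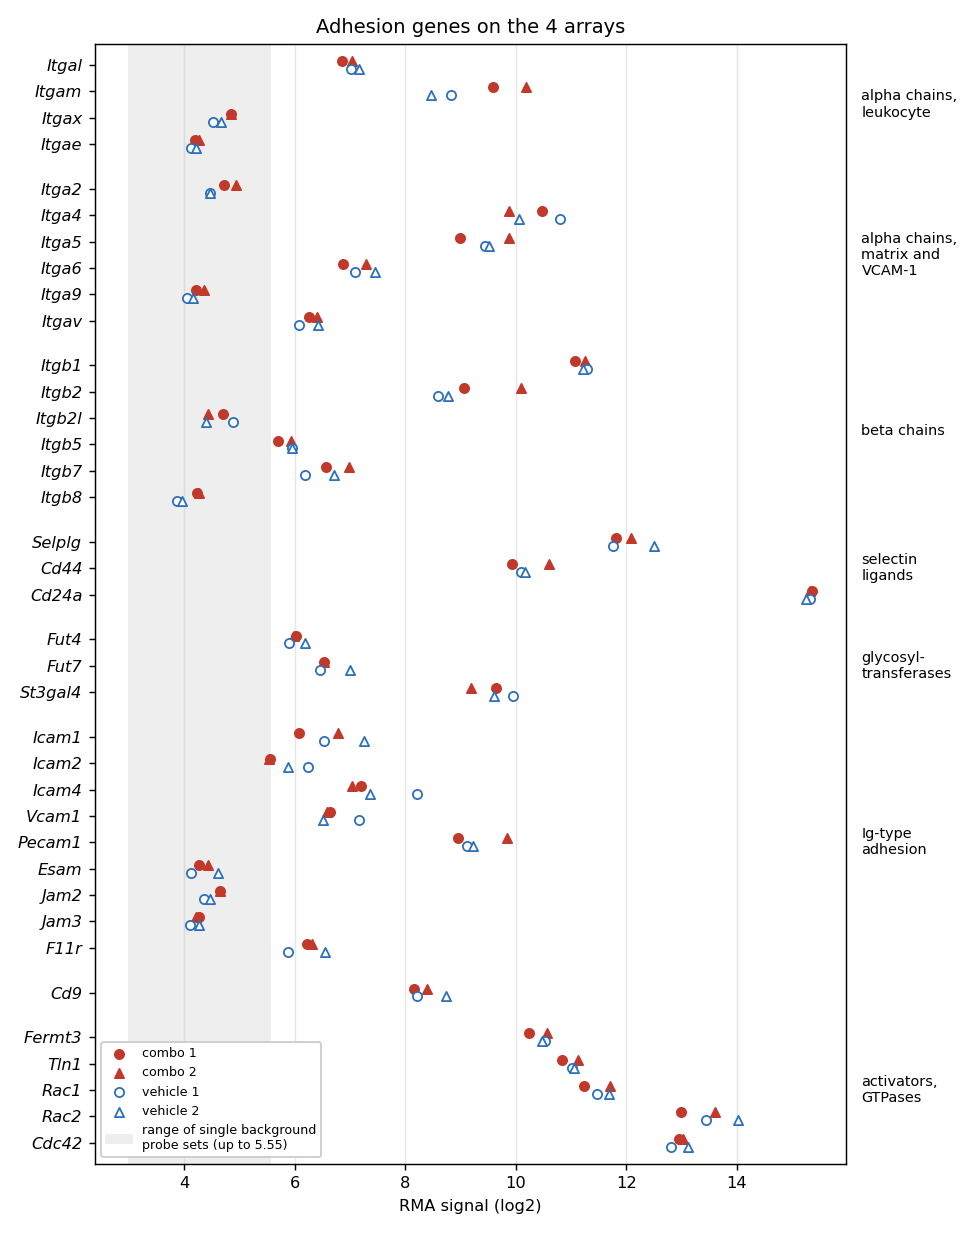
RMA signal (log2, horizontal axis) of the 37 measured adhesion genes, grouped by role, on each of the 4 arrays (filled red, combo; open blue, vehicle; circles, number 1; triangles, number 2; grey, the background range, which ends at 5.55). Itgam and Itgb2 have both combo arrays to the right of both vehicle arrays, whereas the red and blue points of most other genes interleave.

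The member with the largest difference, Itgam, and the one with the largest difference downward, Icam4, are shown with the 250 bases before their start of transcription. The sequences come from the RefSeq table of promoters (GRCm38.p6). The arrays measure RNA levels, and no link between these sequences and the differences was tested. The capitals mark GAGGAA, the core bound by PU.1 (a transcription factor that drives myeloid genes), on either strand in the first sequence, and GATAAG, the motif of GATA factors (which drive erythroid and megakaryocyte genes), on either strand in the second.
Itgam, chr7:128062390-128062639, plus strand: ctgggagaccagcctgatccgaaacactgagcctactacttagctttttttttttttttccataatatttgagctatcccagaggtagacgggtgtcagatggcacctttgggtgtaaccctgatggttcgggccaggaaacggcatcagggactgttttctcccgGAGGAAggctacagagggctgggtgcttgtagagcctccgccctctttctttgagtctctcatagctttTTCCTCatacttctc
Icam4, chr9:21029182-21029431, plus strand: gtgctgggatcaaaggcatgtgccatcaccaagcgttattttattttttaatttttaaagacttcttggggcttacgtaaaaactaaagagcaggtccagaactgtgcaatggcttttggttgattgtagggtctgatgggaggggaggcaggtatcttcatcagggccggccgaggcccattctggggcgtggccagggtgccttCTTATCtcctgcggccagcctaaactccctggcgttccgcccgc
In the Itgam window GAGGAA matched at 2 places, beginning 84 and 15 bases before the start, and in the Icam4 window GATAAG matched once, 44 bases before it. The table held promoters for 23 of the 37 members. GAGGAA was found in windows of 10 of them (Cd44, F11r, Fut7, Itga5, Itgam, Itgav, Itgb1, Itgb2l, St3gal4 and Tln1) and in 23.3% of all 32851 windows. GATAAG was found for Cd44 and Icam4 and in 6.55% of all windows. The palindrome TGACGTCA, bound by CREB after cAMP signals, and the full glucocorticoid response element matched none of the 23 members' windows, and 1.55% and 0.00913% of all windows. Members are counted by gene and the shares by window, so the counts are not set against the shares. A match is a description of the letters, and most sites of these factors lie outside so short a window.

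Among the alpha chains of leukocyte integrins, which carry an extra ligand-binding domain (the I domain), Itgam stood apart. It encodes CD11b, the alphaM chain of Mac-1, a receptor of myeloid cells for complement and ICAM-1. Itgam was at 9.59 and 10.19 on the combo arrays and at 8.82 and 8.46 on the vehicle arrays. Both combo arrays lay above both vehicle arrays, an order that 20.4% of all features showed. The difference was 1.25 (SE 0.26, 95% interval 0.56 to 1.94), or 2.37-fold, with an unadjusted p of 0.0062 and an adjusted p of 0.63 over all features in limma. For number 1 it was 0.77 and for number 2 it was 1.72. Without combo 2 it was 0.95, the lowest value when 1 array was left out, and no longer reached 2-fold, while the unadjusted p stayed between 0.0034 and 0.034 in all 13 alternative fits. Within each group the array with more Camp was the lower of the pair for Itgam in combo and the higher in vehicle. The 11 listed neutrophil genes, 3 of them with both means in the background range, had mean signals of 10.09 and 8.26 on the combo arrays and 9.54 and 7.21 on the vehicle arrays. Cxcr2 and Mmp8, with differences of 4.32 and 2.43, were the 2 of them higher in combo at an unadjusted p under 0.05. The vehicle mean of Mmp8, 5.32, lay in the background range. The other 9 neutrophil genes did not pass and had differences between -0.33 (Ly6g) and 0.70 (Ngp). Among 8 genes of granulocyte-monocyte progenitors, Csf1r and Irf8 were lower at that threshold, by differences of -0.91 and -1.48, and 0 higher. Among 9 macrophage genes, 5 of them with both means in the background range, Mrc1 (-2.19) and Adgre1 (-0.56) were lower and C1qb (1.09) higher. The vehicle mean of C1qb, 4.6, lay in the background range. In either direction, 5.58% of all features and 8.01% of named genes above the background range passed this threshold. The part of the neutrophil, progenitor and macrophage lists in the difference of Itgam was not tested.

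No other leukocyte alpha chain had an unadjusted p under 0.05, and the difference between chains was not tested. Itgal encodes CD11a, the alphaL chain of LFA-1, with which leukocytes hold on to ICAM-1 and ICAM-2. Itgal was at 6.86 and 7.04 in combo and at 7.01 and 7.16 in vehicle. The arrays of both groups interleaved, and the difference of -0.14 had an interval of -0.52 to 0.25. Itgax, which encodes CD11c of dendritic cells and macrophages, was at 4.85 on both combo arrays and at 4.51 and 4.67 on the vehicle arrays. All its values lay in the background range, and the difference of 0.26 did not pass (limma unadjusted p = 0.12). Itgae, the chain that pairs with beta7 on lymphocytes of epithelia, ranged from 4.12 to 4.27 over the 4 arrays, also within background. Itgam and Itgax are direct neighbours on chromosome 7 with 0 protein-coding genes between them, and their differences were 1.25 and 0.26.

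The gene of the beta chain that partners all of the CD11 chains leaned the same way as Itgam. Itgb2 encodes CD18, without which none of the beta2 integrins reaches the surface. Itgb2 was at 9.07 and 10.09 on the combo arrays and at 8.59 and 8.78 on the vehicle arrays. The combo arrays lay above the vehicle arrays but 1.01 apart from each other, against 0.20 between the vehicle arrays. The difference was 0.89 (SE 0.36, interval -0.06 to 1.85) with an unadjusted p of 0.061 and an adjusted p of 0.90 in limma, so it did not pass. It rested largely on combo 2, without which it was 0.39, and it was 1.40 without combo 1. The genes of both chains of Mac-1 were thus higher on both combo arrays (Itgam by 1.25 and Itgb2 by 0.89). Of the genes of both chains of LFA-1 only Itgb2 was, with Itgal at -0.14. Itgb2l, which encodes pactolus, a beta2-like protein of mouse neutrophils, was at 4.70 and 4.43 in combo and at 4.88 and 4.40 in vehicle, within background on every array.

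The gene of the beta1 chain, shared by most integrins that bind matrix, was at nearly the same level in both groups. Itgb1 was at 11.08 and 11.26 in combo and at 11.29 and 11.22 in vehicle. The interval of its difference (-0.09) ran from -0.46 to 0.28, which leaves out changes of 2-fold in either direction. Its partner Itga4 encodes the alpha4 chain of VLA-4, the anchor of progenitors in the marrow. Itga4 was at 10.48 and 9.87 in combo and at 10.80 and 10.05 in vehicle. Arrays numbered 1 were the higher of each group, by 0.61 in combo and 0.74 in vehicle, and the difference between the groups, -0.25 (interval -1.15 to 0.65), was smaller than either gap. Itga6, the laminin-binding alpha6 chain found on stem cells, was at 6.88 and 7.28 in combo and at 7.09 and 7.45 in vehicle. Its groups overlapped as well, with a difference of -0.19 (interval -0.77 to 0.38).

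The genes of the remaining integrin chains showed no difference past the test. Itga5, the fibronectin-binding alpha5 chain, was at 8.99 and 9.88 in combo and at 9.45 and 9.51 in vehicle, so that the combo arrays lay on either side of the vehicle arrays. Itgav, the alphaV chain, was at 6.25 and 6.40 in combo and at 6.08 and 6.42 in vehicle, and its partner Itgb5 at 5.69 and 5.93 in combo and at 5.94 on both vehicle arrays. Itgb7, which pairs with alpha4 to steer lymphocytes to the gut, was at 6.56 and 6.98 in combo and at 6.19 and 6.71 in vehicle, a difference of 0.32 (interval -0.35 to 0.99). Itga2, Itga9 and Itgb8 (a collagen-binding chain, a chain that binds tenascin and VCAM-1, and a partner of alphaV that releases active TGF-beta) lay within the background range in both groups. Their combo arrays were above their vehicle arrays by small amounts, with differences of 0.35, 0.19 and 0.34 and unadjusted p-values of 0.064, 0.24 and 0.050 in limma. In signals so near to background a difference of this size may be understated, and whether these transcripts were present at all cannot be told from the arrays.

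**Figure D2:**
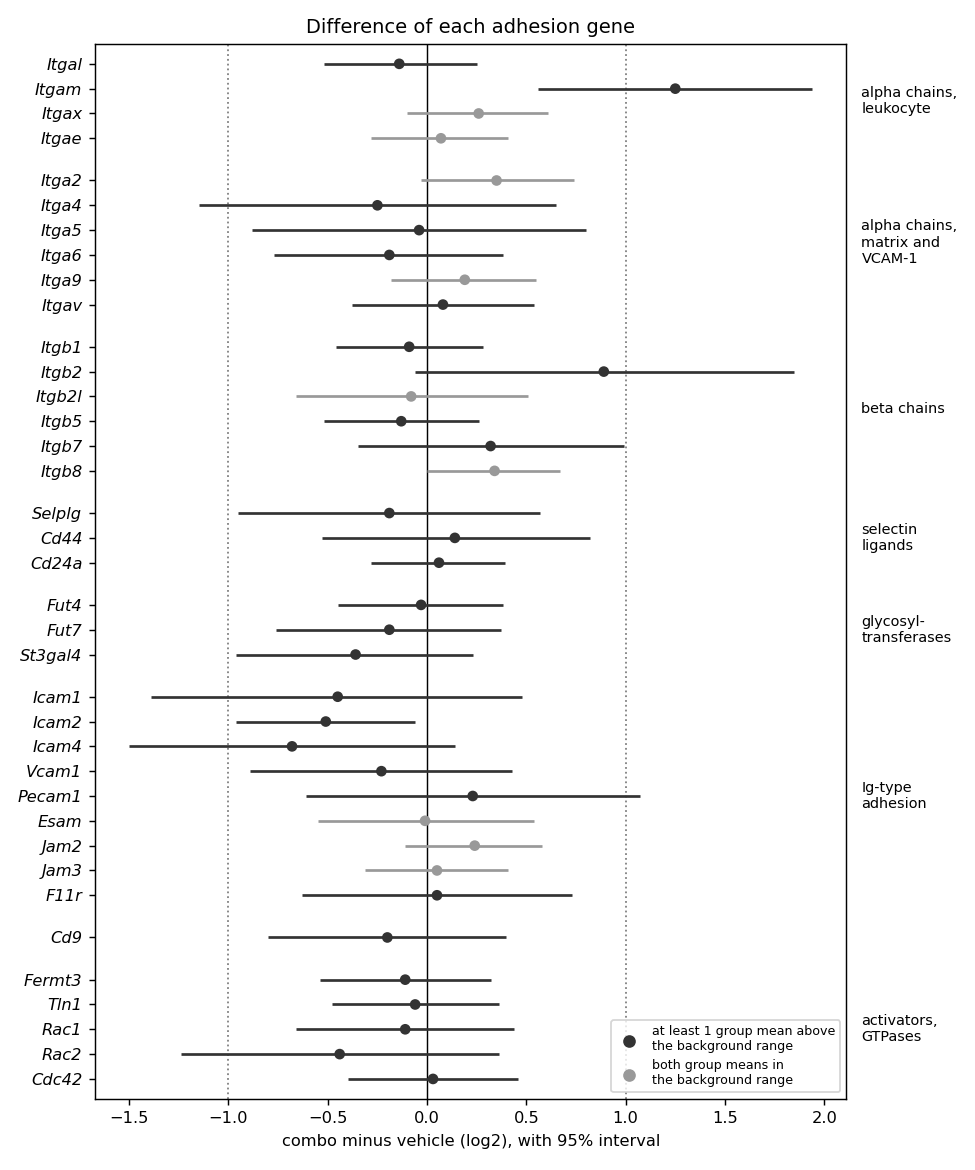
Difference combo minus vehicle (log2, horizontal axis) of each measured adhesion gene, grouped by role, with limma's 95% interval as a line (dark, at least 1 group mean above the background range; light, both within it; dotted lines, 2-fold in either direction). The intervals of Itgam and Icam2 exclude 0, and that of Itgb8, light, starts at it; most intervals lie between the dotted lines.

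The 6 members that make or carry selectin ligands did not differ past the test. Other enzymes of selectin ligands are described below. Selplg encodes PSGL-1, the main ligand of P-selectin on leukocytes. Selplg was at 11.81 and 12.08 in combo and at 11.76 and 12.50 in vehicle. The combo arrays fell between the vehicle arrays, and the difference was -0.19 (interval -0.95 to 0.57). Cd44, a receptor for hyaluronan and, with the right sugars, a ligand of E-selectin, was at 9.94 and 10.61 in combo and at 10.09 and 10.17 in vehicle. Here the vehicle arrays fell between the combo arrays, with a difference of 0.14 (interval -0.53 to 0.82). Cd24a, a small sugar-covered surface protein that can bind P-selectin, was at 15.37 and 15.32 in combo and at 15.33 and 15.25 in vehicle, with an interval of -0.28 to 0.39. The fucosyltransferase genes Fut4 and Fut7, which add the fucose that selectins need, differed by -0.03 and -0.19, and the sialyltransferase gene St3gal4 by -0.36 (interval -0.96 to 0.23). Of these 6 genes 0 had arrays that did not overlap between the groups, an arrangement seen for 34.2% of all features.

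Molecules of the immunoglobulin type, which sit opposite the integrins, included the only other member with an unadjusted p under 0.05. Icam2, a ligand of LFA-1 on endothelium, platelets and leukocytes, was at 5.55 and 5.54 in combo and at 6.23 and 5.87 in vehicle. Both combo arrays lay below both vehicle arrays, as for 13.9% of all features, and the combo mean was in the background range. The difference was -0.51 (SE 0.17, interval -0.96 to -0.06), or 1.42-fold lower, with an unadjusted p of 0.035 and an adjusted p of 0.86 in limma. In the fit on features at or above the median signal, Icam2 no longer had an unadjusted p under 0.05. Its unadjusted p exceeded 0.05 without combo 1, without combo 2 and without vehicle 1, where the differences were -0.52, -0.51 and -0.33. Icam4 encodes a red-cell adhesion protein (the human gene carries the Landsteiner-Wiener blood group) that binds integrins. Icam4 was at 7.19 and 7.03 in combo and at 8.21 and 7.36 in vehicle. The difference of -0.68 (SE 0.31, interval -1.50 to 0.14, limma unadjusted p = 0.085) depended on vehicle 1, without which it was -0.26, and it was -1.10 without vehicle 2. The 4 measured erythroid genes, 0 of them in the background range, had mean signals of 9.27 and 9.35 in combo and 9.92 and 9.65 in vehicle. Tfrc was the 1 of them lower in combo at an unadjusted p under 0.05, as were 2.44% of all features. The erythroid list's part in the difference of Icam4 was not tested.

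Icam1, the ligand of LFA-1 and Mac-1 that inflammatory signals raise, was at 6.08 and 6.78 in combo and at 6.53 and 7.25 in vehicle. The groups overlapped, since the arrays numbered 2 exceeded those numbered 1 by 0.70 in combo and 0.72 in vehicle. The difference between the groups was -0.44 for number 1 and -0.47 for number 2, with a mean of -0.45 and an interval of -1.39 to 0.48. Icam1 and Icam4 are neighbours on chromosome 9 with 0 protein-coding genes between them. Vcam1, the ligand of VLA-4, was at 6.64 and 6.58 in combo and at 7.16 and 6.51 in vehicle, and only vehicle 1 was high. Pecam1 encodes CD31, a molecule of endothelium, platelets and leukocytes that binds itself across cell borders. Pecam1 was at 8.96 and 9.84 in combo and at 9.11 and 9.23 in vehicle, so its combo arrays spanned its vehicle arrays. The junctional molecules Jam2, Jam3 and Esam lay within the background range on every array, between 4.11 and 4.65, and F11r (JAM-A) was at 6.22 and 6.31 in combo and at 5.88 and 6.55 in vehicle.

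Among the members, the genes of proteins that switch integrins on or move the cell behind them did not differ past the test. Fermt3, which encodes kindlin-3, the kindlin of blood cells, was at 10.24 and 10.56 in combo and at 10.53 and 10.48 in vehicle. Tln1 (talin-1), the link from beta tails to actin, was at 10.83 and 11.12 in combo and at 11.01 and 11.06 in vehicle. In both genes the combo arrays lay on either side of the vehicle arrays, and the intervals, -0.54 to 0.32 for Fermt3 and -0.48 to 0.36 for Tln1, leave out changes of 2-fold. Rac2, which drives homing of blood cells and the neutrophil oxidase, was at 12.99 and 13.60 in combo and at 13.45 and 14.02 in vehicle. It was lower in combo by 0.47 for number 1 and 0.41 for number 2, yet the numbers themselves differed by 0.62 and 0.56, and the difference of -0.44 did not pass (limma unadjusted p = 0.21). Rac1 and Cdc42, which shape the actin of the moving cell, differed by -0.11 (interval -0.66 to 0.44) and 0.03 (interval -0.40 to 0.46). Cd9, a tetraspanin that organises integrins in the membrane, was at 8.15 and 8.40 in combo and at 8.21 and 8.73 in vehicle.

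Most members differed more between the replicate numbers than between the groups. The mean difference between arrays numbered 2 and arrays numbered 1 exceeded the difference between the groups in size for 26 of 37 members (70.3%), against 52.0% of all features and 55.8% of named genes above the background range. It had the same sign in both groups for 29 of the 37 members (78.4%), against 56.1% of all features and 65.5% of named genes above the background range. Each of these held for 22 of the 27 members above the background range (81.5%). Arrays numbered 2 were the higher in both groups for 22 of the 37 members, Icam1, Rac2, Selplg and Itgb7 among them. That held for 19674 of the 65956 features and 3358 of 12289 named genes above the background range. Itga4, Icam4, Vcam1 and St3gal4 were higher on the arrays numbered 1 in both groups. With 2 pairs, the labels' numbers cannot be shown to mark a shared source of cells.

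**Figure D3:**
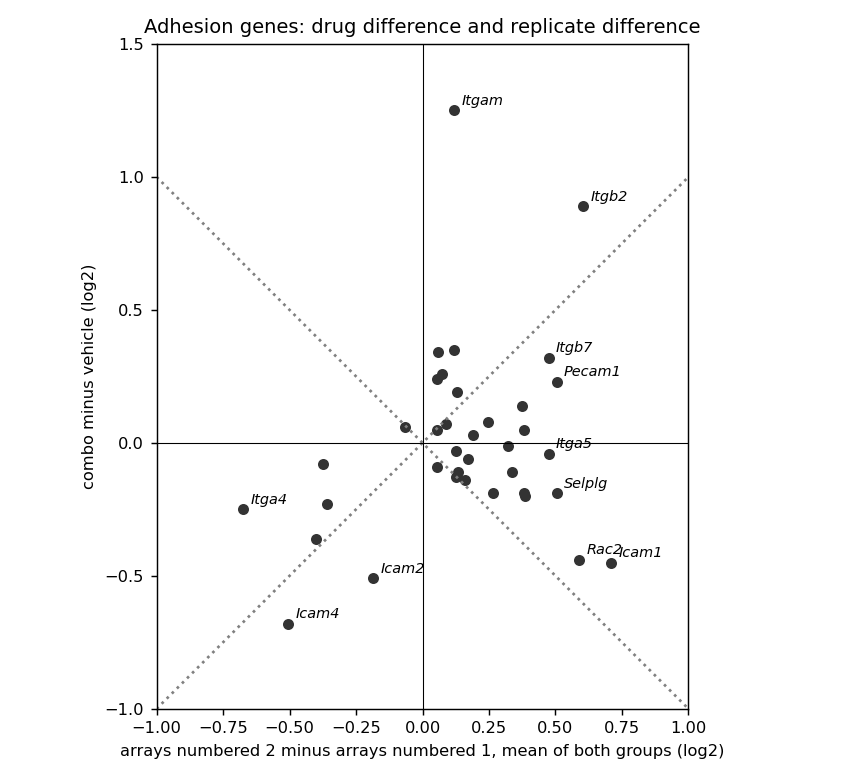
Difference combo minus vehicle (log2, vertical axis) of each measured adhesion gene against the mean difference between arrays numbered 2 and 1 (log2, horizontal axis); on the dotted diagonals both are equal in size. Itgam lies far above the diagonals and Itgb2 above them, while 26 of the 37 genes lie to the left or right of them, with the drug difference the smaller of both.

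Beyond the members, 4 lists of adhesion genes were read in the same fit, of which 3 are described, and 11 of their 109 measured genes (10.1%) had an unadjusted p under 0.05, 7 higher and 4 lower, against 5.58% of all features and 8.01% of named genes above the background range. None passed the adjusted threshold. The lists were chosen with earlier results of these data known, so a share above the background is no result about them. Without vehicle 1 the count was 6, so it too depended on a single array. The list of other selectins and selectin ligand enzymes had a median difference of -0.02 over 16 of 17 genes, with 2 higher and 2 lower, or 4 of 16. B4galt1, a galactosyltransferase that builds the lactosamine chains under selectin ligands, was at 11.37 and 11.50 in combo and at 10.37 and 10.38 in vehicle. The arrays of each group lay close together and the groups far apart, with a difference of 1.06 (SE 0.13), a 2.09-fold level, an unadjusted p of 0.00070 and an adjusted p of 0.34 in limma. Its difference stayed between 1.00 and 1.13 whichever array was left out, and the unadjusted p stayed under 0.05 in all 13 alternatives. Tpst2, a sulfotransferase acting on tyrosines such as those of PSGL-1, was at 8.58 and 8.84 in combo and at 8.10 and 8.23 in vehicle. St3gal6, a sialyltransferase of selectin ligands, was at 7.54 on both combo arrays and at 8.54 and 8.01 on the vehicle arrays. Podxl, a sialomucin related to CD34, was at 5.33 and 5.44 in combo, within background, and at 6.0 and 5.87 in vehicle.

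Among 34 other adhesion molecules and tetraspanins, with a median of 0.05, 2 were higher and 1 lower at an unadjusted p under 0.05 (8.82%), a share near the 8.01% of named genes above the background range and so no result about the list. Cd53, a tetraspanin of leukocytes, was at 11.12 and 11.74 in combo and at 10.03 and 10.68 in vehicle, a difference of 1.08 that was 1.09 for number 1 and 1.06 for number 2. Alcam, which binds CD6 and itself, was at 8.69 and 9.90 in combo and at 8.12 and 8.19 in vehicle, a difference of 1.14 that was 0.53 without combo 2. Cd48, a ligand of 2B4 used to tell progenitors from stem cells, was at 11.64 and 12.04 in combo and at 12.47 and 13.09 in vehicle, a difference of -0.94. The 30 measured integrin adaptors and inside-out signalling genes had a median of -0.02, with 2 higher and 0 lower (6.67%), a share between both backgrounds. They were Vav3, a signalling protein downstream of integrins (8.66 and 8.71 in combo, 7.89 and 8.18 in vehicle), and Cyth1, an exchange factor for ARF proteins that binds the beta2 tail (8.46 and 9.08 in combo, 8.06 and 7.91 in vehicle). Each of the 9 genes named from these lists except B4galt1 lost the unadjusted call when at least 1 array was left out. Vav3 lost it without vehicle 1 (0.51), and Cd48 without combo 1 and without vehicle 2, with a range of -1.25 to -0.63 without 1 array. Cd53 lost it without combo 2 and without vehicle 1, with a range of 0.75 to 1.40, and Podxl without combo 1 and without vehicle 1 (-0.61 to -0.48). Alcam (0.53 to 1.74) lost it without either vehicle array, as did Tpst2 (0.41 to 0.67) and Cyth1 (0.47 to 1.09), which also lost it without combo 2. St3gal6 (-1.0 to -0.47) lost it without combo 1, without combo 2 and without vehicle 1. A fit on 3 arrays has fewer residual degrees of freedom, so a call can be lost there without any move in the difference.

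**Figure D4:**
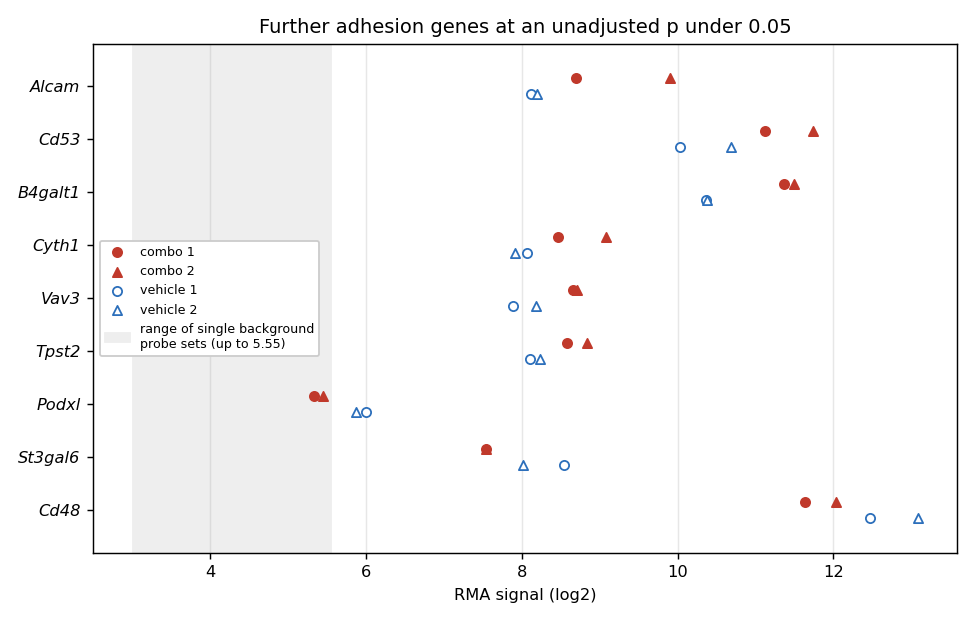
RMA signal (log2, horizontal axis) of the 9 further adhesion genes of the 3 lists described that had an unadjusted p under 0.05, on each of the 4 arrays (filled red, combo; open blue, vehicle; circles, number 1; triangles, number 2; grey, background range). The combo points of B4galt1, at 11.37 and 11.50, are the farthest from their vehicle points relative to the spread within groups.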

How the data were processed

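The authors deposited log2 signals, for which the submitters' processing notes name RMA and the Transcriptome Analysis Console. RMA corrects background, normalizes between arrays and summarises each probe set. Neither tool's version nor a genome build is named there. RMA compresses dim signals, so folds near background are understated. Total RNA was amplified from 10 ng, per the labels' protocols. Precision is limited by having 2 arrays in each group.

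Of 72688 rows, 6732 control rows were left out, which left 65956 features, 30604 with 1 gene symbol. A gene with several probe sets was represented by the one with the brightest mean. The test was limma's moderated test (limma 3.58.1, R 4.3.3), two-sided, with group as the only term, Benjamini-Hochberg adjustment over all features and thresholds of 0.05. Intervals use limma's moderated spread. The fit was tested on simulated data. The result of 1 further list is not reported here by itself. Members, lists, naming rule and thresholds were chosen with earlier results of these data known. By the naming rule, values on every array are given for members at an unadjusted p under 0.05 and for Selplg, Cd44, Itga4, Itgal, Itgam, Itgax, Itgb1, Itgb2, Itgb2l, Itga6, Icam1, Vcam1, Pecam1, Fermt3 and Tln1, and of each further list for up to 5 genes at an unadjusted p under 0.05. Other genes given by array, and both promoters, were chosen after their values were seen. Alternatives comprised a block for replicate number, other priors (intensity trend, robust), filters on dim features, renormalization, kept control rows, mean probe sets and each array left out.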

Additional observations from a re-analysis of the deposited data

How the results depend on the processing

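Across all 13 alternatives, 0 members passed the adjusted threshold. The 2 members with an unadjusted p under 0.05 became 6 with the replicate number as a block (Itgam and Itgb2 higher, Icam1, Icam2, Icam4 and Rac2 lower) and 1 among features at or above the median signal, where 32 members remained in the fit, and 1 to 4 without 1 array. The console's threshold took 0 to 2 members without 1 array and 1 in the other fits. The members' median difference was -0.13 to 0.07 without 1 array. The 11 further adhesion genes became 24 with the replicate block and 6 to 13 without 1 array. The labels' numbers are shared by 2 pairs only, so this block is no established pairing. The gap between numbers in combo correlated with that in vehicle at r = 0.45 across the 37 members. It did so at 0.33 across all features and 0.48 across features above the background range. All these points share the same 4 arrays.

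Outside the fits without 1 array, 323 of 328 member differences kept their sign. Itga5 became 0.01 and Jam3 -0.01 after a second quantile normalization, and Jam3 -0.01, F11r 0.0 and Cdc42 -0.02 after centring the arrays. With 1 array left out, 17 members kept their sign in each fit and 20 did not; with all 4 arrays none of these 20 had an unadjusted p under 0.05. Their ranges were -0.62 to 0.12 for Itga4, -0.48 to 0.40 for Itga5, -0.40 to 0.01 for Itga6, -0.09 to 0.25 for Itgav, -0.18 to 0.01 for Itgb1 and -0.32 to 0.16 for Itgb2l. They were -0.56 to 0.18 for Selplg, -0.19 to 0.48 for Cd44, -0.18 to 0.11 for Fut4, -0.46 to 0.07 for Fut7, -0.55 to 0.10 for Vcam1, -0.21 to 0.67 for Pecam1, -0.25 to 0.23 for Esam, -0.03 to 0.13 for Jam3 and -0.28 to 0.39 for F11r. For Cd9 the range was -0.45 to 0.06, for Fermt3 -0.27 to 0.05, for Tln1 -0.21 to 0.09, for Rac1 -0.34 to 0.12 and for Cdc42 -0.12 to 0.19. Such a fit assumes that the lone array of a group varies like the other group. The causes were not tested. Signal limits the 9 members within the background range in both groups.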
